A study of Bos taurus with 9 samples.

Results

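The endoplasmic reticulum (ER) chaperones are the proteins that fold secreted and membrane proteins after they enter the ER. The 8 genes described here were fixed by name: HSPA5, HSP90B1, PDIA3, PDIA4, CALR, CANX, XBP1 and SDF2L1. All probe sets whose single gene symbol was one of these names were taken, which gave 13 of 24016 probe sets and 7 of 9155 named genes. HSPA5, PDIA4 and CANX had 3 probe sets each and HSP90B1, PDIA3, CALR and SDF2L1 had 1 each. XBP1 had no probe set named for it and has no value here. It encodes the transcription factor that, after its messenger RNA is spliced during ER stress, activates many of the other genes on the list.

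The cells were bovine, from 3 calves aged 3 to 6 months, and each calf gave 1 array in each of 3 groups. Mesenchymal stem cells (MSCs, marrow cells that can form cartilage, bone and fat) were seeded in agarose, a gel that holds cells in 3 dimensions, and taken at once as undifferentiated cells (MSC_day0). MSC_day28 were the same kind of cells after 28 days in chemically defined medium with TGF-beta3, a growth factor that induces cartilage formation, at 10 ng/mL. Chondrocytes_day28 were articular cartilage cells encapsulated and cultured for 28 days in the same way. No group received the medium without TGF-beta3, so culture time in the gel and growth factor cannot be told apart. Chondrocytes at day 0 were not analysed here. Donor numbers 1 to 3 in the labels stand for the calves.

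Proteins enter the ER unfolded through a channel in its membrane. HSPA5, also called BiP, binds their hydrophobic stretches, calnexin and calreticulin hold them by their sugar chains, and protein disulfide isomerases set their disulfide bonds. Cells that secrete much matrix, such as chondrocytes, load this machinery heavily with collagens and proteoglycans. When unfolded protein builds up, the sensors IRE1, PERK and ATF6 raise the transcription of chaperone genes, a reaction known as the unfolded protein response.

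Values are deposited log2 signals, on a scale that ran from 0.99 to 13.96 over all arrays, and 1 unit is a 2-fold step. Each difference is followed by its standard error as limma gives it, always with n = 3 for each group, and a gene was called at a Benjamini-Hochberg adjusted p under 0.05 over all probe sets. A gene was read by its probe set of highest mean. With 3 arrays a group, precision is limited by their number. The bioC transcript, a hybridisation control added to each array, read 8.80 on MSC_day28 donor 3 and on chondrocytes_day28 donor 3, against 11.38 to 11.83 on the other 7 arrays. The 3′ signal of 6 control transcripts exceeded their 5′ signal by 1.34 ± 0.23 (SD, n = 3) in MSC_day0, 1.81 ± 0.20 in MSC_day28 and 1.81 ± 0.19 in chondrocytes_day28. Of 12 chondrocyte markers, 11 were higher in MSC_day28 and in chondrocytes_day28 than in MSC_day0. They averaged 4.84 to 5.05, 9.32 to 9.77 and 9.85 to 9.95 in the 3 groups. Between chondrocytes_day28 and MSC_day28, 1 of the 12 was called higher (median difference 0.01), so most of them did not separate these cell types. Of 13 stromal markers, 3 were lower and 0 higher in chondrocytes_day28 than in MSC_day0, and 10 were not called. Against MSC_day28, 2 were higher and 2 lower in chondrocytes_day28. Plasma and B cells, which carry much ER, were looked for too: 4 of their 7 measured markers had a mean under the 25th percentile of probe sets, and the log2 of their summed level was 6.41 to 6.63 in MSC_day0, 6.76 to 7.56 in MSC_day28 and 6.40 to 6.95 in chondrocytes_day28. Among these markers JCHAIN was higher in MSC_day28 than in MSC_day0 (0.94 ± 0.27, adjusted p = 0.0262) and lower in chondrocytes_day28 than in MSC_day28 (-1.04 ± 0.27, 0.0391). Against MSC_day0, PRDM1 was higher (1.62) and MZB1 lower (-0.54) in chondrocytes_day28. The part of these cells in the members' differences was not tested.

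**Figure D1:**
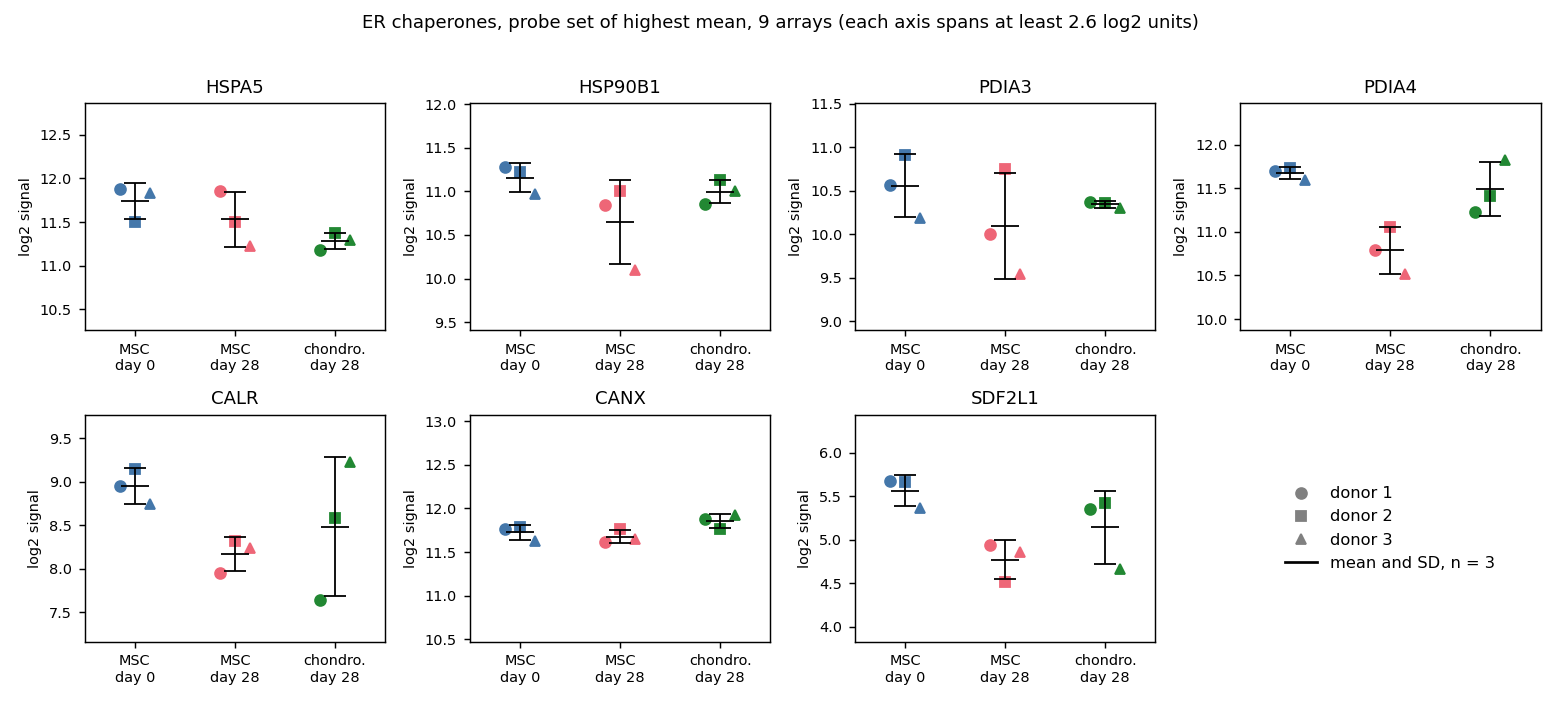
Log2 signal of the 7 measured ER chaperone genes, by the probe set of highest mean, on each of 9 arrays (marker shape is the donor; bars are mean and SD, n = 3). PDIA4 and SDF2L1 lay lower on all 3 MSC_day28 arrays than on the MSC_day0 arrays, and CANX stayed between 11.62 and 11.92 on all 9.

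The question of the first comparison is what happened to these genes as MSCs were turned towards cartilage over 28 days. Of the 7 genes, 2 passed the test, both lower in MSC_day28 than in MSC_day0: the disulfide isomerase PDIA4 (-0.89) and the BiP-associated SDF2L1 (-0.79). The other 5 genes did not pass. Over all genes, 21.0% were called lower and 13.5% higher, so that 2 of 7 is near that background. All 7 differences were below 0, as were 5417 of all 9155 genes. The median of the members was -0.51 beside -0.11 over all genes. Of the 7 genes, 5 were lower in each of the 3 donors, as were 39.6% of all genes. By the strongest probe set, the 95% intervals of 2 genes, CANX and HSPA5, left out a 2-fold difference in either direction. Those of the other 5 genes did not. Nor did those of the second HSPA5 set (from -1.77 to -0.02) and the weaker CANX sets (from -1.20 to 0.63 and from -1.15 to 0.50). The 3 arrays of each group did not overlap for 3 of the 7 genes, PDIA4, SDF2L1 and CALR, against 28.8% of all genes in that direction. Without the 2 arrays of low bioC the same number of genes, 2, was called, and the median moved to -0.24. The 3′ excess of the control transcripts was 1.14 to 1.59 on the MSC_day0 arrays and 1.58 to 1.95 on the MSC_day28 arrays, and its part in the members' differences was not tested. Of 14 measured blood cell markers, 4 were lower and 1 higher in MSC_day28, 6 of the 14 had a mean under the 25th percentile of probe sets, and the log2 of their summed level was 9.18 to 9.74 in MSC_day0 and 8.61 to 8.76 in MSC_day28. Their part was not tested either. In samples of many cells, fewer cells of a type and less RNA per cell cannot be told apart.

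HSPA5 is the ER member of the HSP70 family and the protein whose release activates the stress sensors. Its strongest probe set read 11.88, 11.50 and 11.83 for donors 1 to 3 in MSC_day0, 11.86, 11.50 and 11.23 in MSC_day28, and 11.18, 11.37 and 11.29 in chondrocytes_day28. Donors 1 and 2 were level between the MSC groups, donor 3 fell back at day 28, and all 3 chondrocyte arrays lay below all 3 MSC_day0 arrays. The difference between MSC_day28 and MSC_day0 was -0.21 ± 0.18 (adjusted p = 0.456), and its 95% interval, from -0.62 to 0.21, left out a 2-fold change either way.

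The second probe set of HSPA5 moved further. It read 9.90, 9.47 and 9.36 in MSC_day0, 9.48, 8.81 and 7.73 in MSC_day28, and 7.78, 8.34 and 8.23 in chondrocytes_day28. MSC_day28 donor 3, an array of low bioC, was the lowest of the 9, and the MSC_day28 group spanned 1.75, the widest range of any member probe set in any group. MSC_day28 differed from MSC_day0 by -0.90 ± 0.39 (adjusted p = 0.115). The third set ranged from 1.54 to 2.39 on all arrays, with a mean under the 25th percentile of probe sets, and differed by -0.41. Over the 9 arrays the 3 sets correlated with Pearson r of 0.787 to 0.920 (a description over arrays that share groups), so they ranked the arrays alike while the size of the change depended on the set.

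HSP90B1, or GRP94, is the HSP90 of the ER and folds a limited set of clients, integrins and Toll-like receptors among them. Its values were 11.28, 11.22 and 10.97 in MSC_day0, 10.85, 11.00 and 10.10 in MSC_day28, and 10.86, 11.13 and 11.00 in chondrocytes_day28. Each donor was lower at day 28, donor 3 by the most, and the ranges of the MSC groups overlapped. The difference of -0.51 ± 0.23 (adjusted p = 0.127) did not pass, and it was -0.24 without the 2 arrays of low bioC.

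PDIA4, or ERp72, is a disulfide isomerase with several thioredoxin-like domains. Its strongest probe set read 11.70, 11.73 and 11.60 in MSC_day0, 10.79, 11.06 and 10.52 in MSC_day28, and 11.23, 11.41 and 11.83 in chondrocytes_day28. The MSC_day28 arrays were the lowest 3 of the 9, with no overlap with either other group. PDIA4 was lower in MSC_day28 than in MSC_day0 by 1.85-fold (-0.89 ± 0.19, 95% interval from -1.32 to -0.46, adjusted p = 0.00694), in all 3 donors. Its other sets, which read 4.74 to 6.41 and 3.53 to 5.04 over the 9 arrays, differed in the same direction by -0.64 ± 0.37 (adjusted p = 0.240) and -0.49 ± 0.29 (0.249) and were not called. With the mean of the 3 sets the difference was -0.67 (adjusted p = 0.0629). The call was also lost without donor 1 in all groups (-0.88, adjusted p = 0.0721).

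PDIA3, or ERp57, is the isomerase that works on glycoproteins held by calnexin and calreticulin. Its values were 10.57, 10.91 and 10.19 in MSC_day0, 10.01, 10.75 and 9.54 in MSC_day28, and 10.37, 10.36 and 10.30 in chondrocytes_day28. In both MSC groups donor 2 was highest and donor 3 lowest, while the chondrocyte arrays lay within 0.07 of each other. Each donor was lower at day 28, and the difference of -0.46 ± 0.29 (adjusted p = 0.279) did not pass. It passed when MSC_day28 donor 2 was left out (-0.79, adjusted p = 0.0374).

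CALR encodes calreticulin, the soluble lectin and calcium store of the ER. It read 8.95, 9.15 and 8.74 in MSC_day0, 7.95, 8.32 and 8.24 in MSC_day28, and 7.64, 8.58 and 9.23 in chondrocytes_day28. The MSC groups did not overlap, whereas the chondrocyte arrays ran from the lowest of the 9 values to the highest, with an SD of 0.80. The difference between the MSC groups was -0.78 ± 0.34 (95% interval from -1.55 to -0.01, adjusted p = 0.121), which did not pass. The spread of all 3 groups enters this test. With the 2 MSC groups alone the same difference passed (adjusted p = 0.0172), as it did without chondrocytes_day28 donor 1 (0.0257) or donor 3 (0.0489).

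CANX encodes calnexin, the membrane-bound counterpart of calreticulin. Its strongest probe set gave 11.76, 11.79 and 11.63 in MSC_day0, 11.62, 11.76 and 11.65 in MSC_day28, and 11.88, 11.76 and 11.92 in chondrocytes_day28. All 9 arrays lay within 0.30 of each other, and the MSC groups differed by -0.05 ± 0.12 (95% interval from -0.32 to 0.22, adjusted p = 0.799). The 2 weaker sets, at 4.03 to 5.68 and 2.81 to 4.41, were lowest on MSC_day28 donor 3 and correlated with the strongest set at r of 0.240 and 0.320 only. None of the 3 CANX sets was called in any comparison.

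SDF2L1 encodes a small protein that forms a complex with BiP and its J-domain partners. It read 5.67, 5.66 and 5.36 in MSC_day0, 4.94, 4.52 and 4.86 in MSC_day28, and 5.35, 5.42 and 4.66 in chondrocytes_day28. The MSC groups did not overlap, and chondrocytes_day28 donor 3 lay among the MSC_day28 values. SDF2L1 was lower in MSC_day28 than in MSC_day0 by 1.73-fold (-0.79 ± 0.22, 95% interval from -1.29 to -0.29, adjusted p = 0.0243), in all 3 donors. The call was lost without MSC_day0 donor 1 (-0.74, adjusted p = 0.0792), MSC_day0 donor 2 (-0.74, 0.0727) or MSC_day28 donor 2 (-0.66, 0.0802), and without donor 1 (-0.82, 0.131) or donor 2 (-0.62, 0.181) in all groups.

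**Figure D2:**
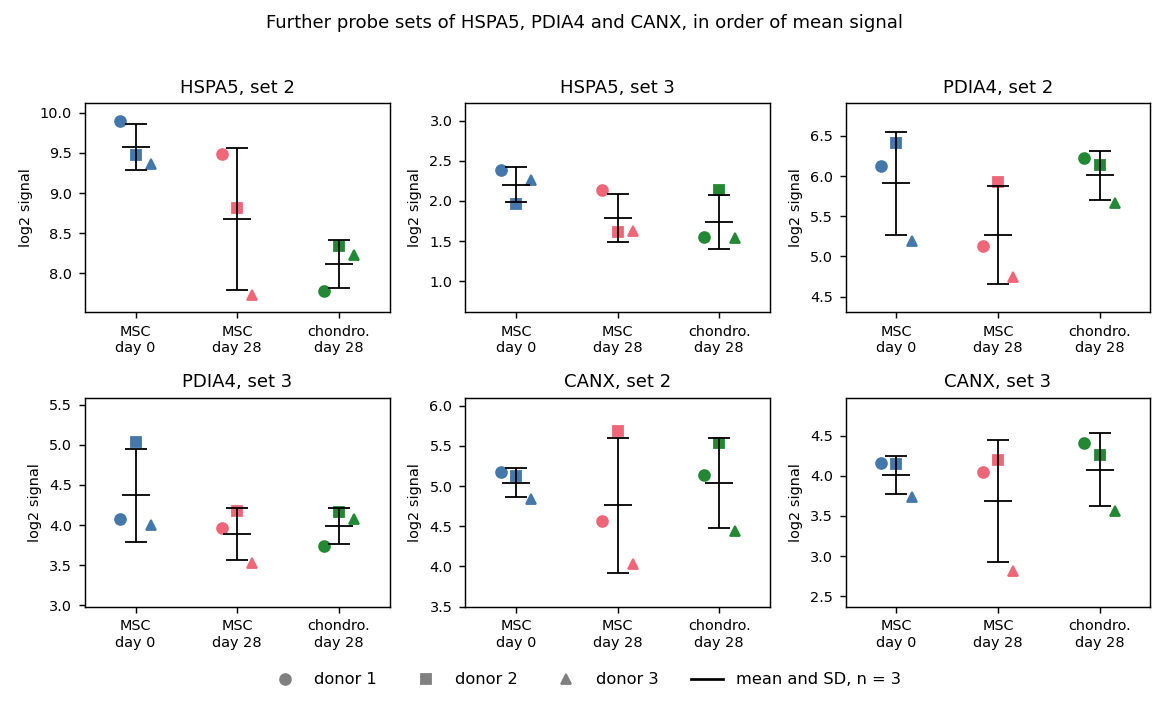
Log2 signal of the 6 further probe sets of HSPA5, PDIA4 and CANX on each of 9 arrays (marker shape is the donor; bars are mean and SD, n = 3). The second HSPA5 set was lower on all chondrocyte arrays than on all MSC_day0 arrays, and MSC_day28 donor 3 was the lowest array of its group in 5 of the 6 panels.

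The arrays were not equally placed within their groups. Of the 13 member probe sets, 11 had their lowest MSC_day0 value on donor 3, as had 34.3% of all probe sets, and 9 had their lowest MSC_day28 value on donor 3, as had 36.2% of all. In chondrocytes_day28 donors 1 and 3 were lowest in 6 sets each.

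The second comparison set cultured chondrocytes beside MSCs after the same 28 days. PDIA4 alone of the 7 genes passed the test, higher in chondrocytes_day28 (0.70). Of the 7 differences, 6 were above 0, as were 4412 of all 9155 genes. Over all genes 8.35% were called higher and 4.81% lower. The median difference of the members was 0.32 beside -0.02 over all genes, and 2 of the 7 genes were higher in all 3 donors, as were 2290 of all 9155 genes. PDIA4 was also the one gene whose arrays did not overlap, against 16.9% of all genes in that direction. Without the 2 arrays of low bioC the median was 0.07 and no member was called (limma). In the full set 1 of 7 genes had an unadjusted p under 0.05 (limma), as had 2627 of all 9155 genes.

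PDIA4 was 1.63-fold higher in chondrocytes_day28 than in MSC_day28 (0.70 ± 0.19, 95% interval from 0.27 to 1.13, adjusted p = 0.0492), in all 3 donors. This call stood at the threshold. It was lost when any 1 of the arrays other than MSC_day28 donor 2 was left out (differences from 0.53 to 0.83, adjusted p from 0.0501 to 0.129), with the donors as a block (0.70, 0.0618) and without both arrays of low bioC (0.40, 0.220). The other PDIA4 sets gave 0.74 (adjusted p = 0.270) and 0.10 (0.890).

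The remaining 6 genes did not pass. SDF2L1 differed by 0.37 ± 0.22 (adjusted p = 0.366), HSP90B1 by 0.35 ± 0.23 (0.412) and CALR by 0.32 ± 0.34 (0.657). PDIA3 differed by 0.25 ± 0.29 (0.692) and CANX by 0.18 ± 0.12 (0.432). HSPA5 was the 1 gene below 0, at -0.25 ± 0.18 (0.476) for its strongest set, -0.56 ± 0.39 (0.448) for the second and -0.05 for the third. By the strongest probe set, the 95% intervals of 5 genes, CANX, HSP90B1, HSPA5, PDIA3 and SDF2L1, left out a 2-fold difference in either direction. Those of PDIA4 and CALR did not. Nor did those of the second HSPA5 set (from -1.43 to 0.32) and the weaker CANX sets (from -0.64 to 1.19 and from -0.43 to 1.21). CALR and PDIA3 lost their positive sign without the 2 arrays of low bioC, at -0.02 and -0.01.

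**Figure D3:**
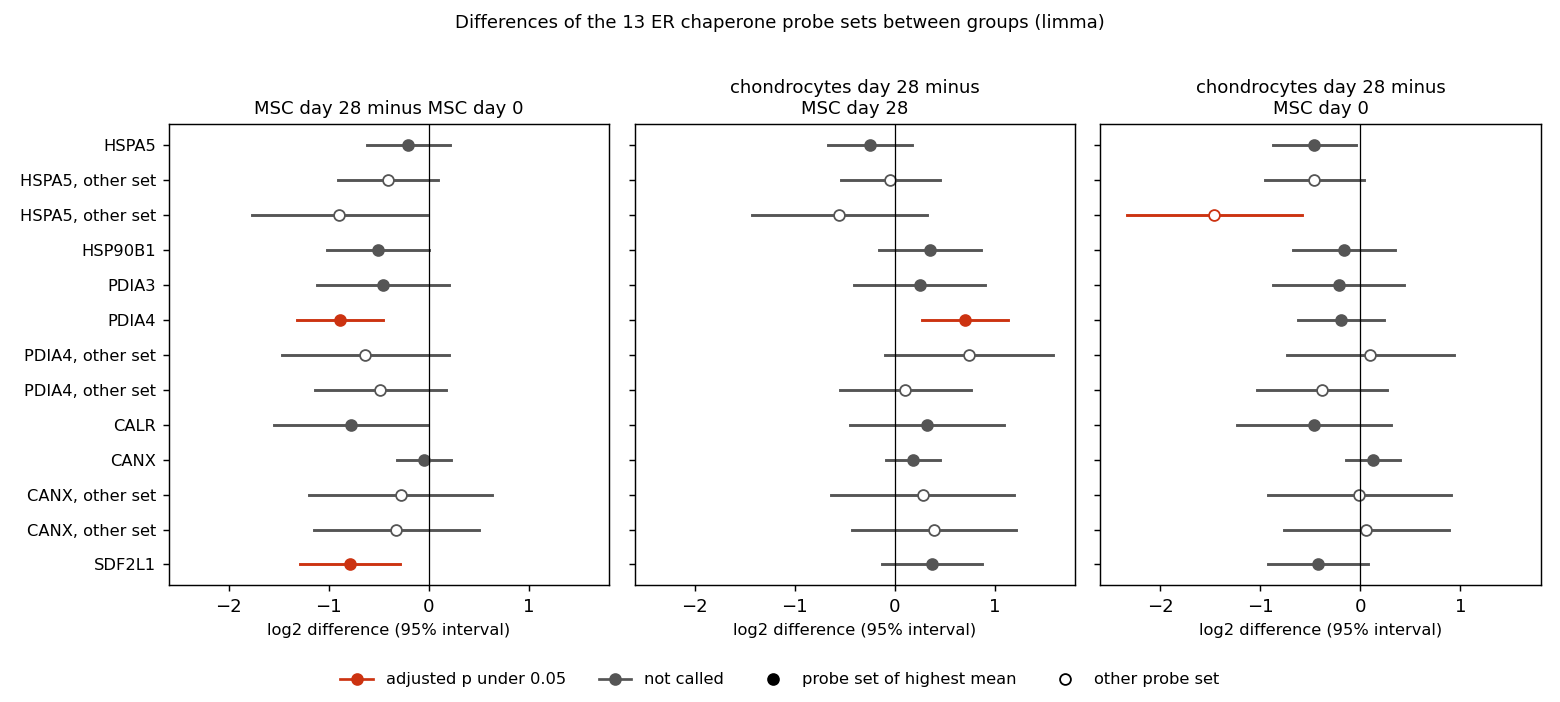
Log2 differences with 95% intervals for the 13 ER chaperone probe sets in the 3 comparisons (filled points are the probe set of highest mean, open points the others; red is an adjusted p under 0.05). In the left panel all 13 points lie below 0, with PDIA4 at -0.89 and SDF2L1 at -0.79 called, and in the right panel the second HSPA5 set at -1.46 is called.

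The third comparison set cultured chondrocytes beside undifferentiated MSCs. It shares arrays with both comparisons above and adds no independent evidence to them. By the strongest probe set none of the 7 genes was called by limma, where 15.1% of all genes were called higher and 20.9% lower. At an unadjusted p under 0.05 (limma) there was 1 gene, HSPA5, where 4333 of all 9155 genes had such a p. The median difference was -0.21 beside -0.12 over all genes, and 6 of the 7 were below 0, as were 5430 of all 9155 genes. HSPA5 was also the 1 gene whose arrays did not overlap, against 32.3% of all genes in that direction.

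For HSPA5 the outcome depended on the probe set. The strongest set differed by -0.46 ± 0.18 (95% interval from -0.87 to -0.04, adjusted p = 0.0929). The second set was lower in chondrocytes by 2.74-fold (-1.46 ± 0.39, adjusted p = 0.0192), in all 3 donors and with no overlap, where 15.9% of all probe sets were called lower, and the third differed by -0.46. The call of the second set was lost without MSC_day0 donor 1 (-1.29, adjusted p = 0.0708) or chondrocytes_day28 donor 1 (-1.28, 0.0726), and without donor 1 (-1.12) or donor 2 (-1.62) in all groups. Without the 2 arrays of low bioC it was -1.51 (0.00738).

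The remaining 6 genes did not pass. CALR differed by -0.46 ± 0.34 (adjusted p = 0.348), SDF2L1 by -0.42 ± 0.22 (0.189), PDIA3 by -0.21 ± 0.29 (0.626), PDIA4 by -0.19 ± 0.19 (0.507), HSP90B1 by -0.16 ± 0.23 (0.640) and CANX by 0.13 ± 0.12 (0.473). By the strongest probe set, the 95% intervals of all but CALR left out a 2-fold difference. That of the weakest PDIA4 set, from -1.03 to 0.27, did not. PDIA4 read 11.68 ± 0.07 (SD, n = 3) in MSC_day0, 10.79 ± 0.27 in MSC_day28 and 11.49 ± 0.31 in chondrocytes_day28, so MSC_day28 was the low group of this gene.

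The other members did not follow HSPA5 closely over the 9 arrays, and correlations among those other members were not computed. With the strongest HSPA5 set, HSP90B1 correlated at r of 0.416, SDF2L1 at 0.286, CALR at 0.184, PDIA4 at 0.168, PDIA3 at 0.143 and CANX at -0.565. The named genes most like HSPA5 by this measure were KAT14 (0.944), MRPS9 (0.942), RAPGEF1 (0.940), LONP2 (0.935) and HYOU1 (0.935). These values describe 9 arrays of 3 groups and carry no test. HYOU1 is itself an ER chaperone, the nucleotide exchange factor of BiP.

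In the wider pathway, 8 lists of other ER protein folding genes held 107 measured genes. Between MSC_day28 and MSC_day0, 16 of these were higher and 14 lower, with a median of -0.04, beside 13.5% higher and 21.0% lower over all genes. Of 13 partners and cofactors of BiP, 3 were lower: CRELD2 and MANF, which are secreted during ER stress, and the reductase DNAJC10 (-0.57). CRELD2 read 7.56, 7.31 and 7.22 in MSC_day0, 6.12, 4.80 and 4.09 in MSC_day28 and 6.85, 7.22 and 6.74 in chondrocytes_day28, and was lower by -2.36 ± 0.42 (adjusted p = 0.00270). MANF was lower by -0.84 ± 0.21 (0.0157). Another 3 partners were higher, DNAJC3 (0.64), SEC63 (0.56, and 0.40 with adjusted p = 0.0670 as the mean of its sets) and the exchange factor SIL1 (1.11), while HYOU1 (-0.66), DNAJB11 (-0.39) and DNAJB9 (0.03) were not called. The MANF call was lost without MSC_day0 donor 1 (adjusted p = 0.0608), and that of DNAJC10 without MSC_day0 donor 1 or 3 or MSC_day28 donor 2 or 3 (0.0684 to 0.0832), with ribosomal protein centring (0.0502) and without both arrays of low bioC (0.0992). With donor 2 left out of all groups the CRELD2 call was lost (-2.28, 0.0545), and the MANF, DNAJC10 and SEC63 calls were lost with any 1 donor left out in this way (0.0527 to 0.204). Those of DNAJC3 (0.0858 and 0.0739) and SIL1 (0.108 and 0.0884) were lost without donor 1 or donor 2.

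Among 12 stress sensors and factors, 4 were higher in MSC_day28, CREB3L2 (1.87), MBTPS2 (1.10), DDIT3 (1.03) and ATF6B (0.77), and 2 were lower, CREB3 (-1.33) and PPP1R15A (-1.33). Over all genes 13.5% were called higher and 21.0% lower in this comparison. DDIT3, or CHOP, is a transcription factor induced late in ER stress, and it was higher on all 3 arrays (adjusted p = 0.00692) where PDIA4 and SDF2L1 were lower. ATF4 differed by 0.17 (0.403). The ATF6B call was lost without MSC_day0 donor 3 (0.0601) and with donor 1 (0.0894) or donor 3 (0.0743) left out of all groups, and the DDIT3 call with donor 1 (0.78, 0.0733) or donor 2 (1.14, 0.0577) left out of all groups. The other 6 lists held 9 higher and 9 lower of 82 genes. Among these SERPINH1, the collagen chaperone HSP47, was lower (-0.92 ± 0.22, 0.0110) and the isomerase P4HB differed by 0.01. The SERPINH1 call was lost with donor 1 (-0.97, 0.0857) or donor 2 (-1.04, 0.0540) left out of all groups.

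Between chondrocytes_day28 and MSC_day28, 9 of the 107 were higher and 5 lower, beside 8.35% and 4.81% of all genes. CRELD2 was higher in chondrocytes (1.93 ± 0.42, adjusted p = 0.0201), MANF differed by 0.68 (0.0808) and SERPINH1 by 0.56 (0.146). Also higher were ITPR2 (1.45, 0.00345), UBE2J1 (1.16, 0.0116), ERO1A (1.14, 0.0261), FKBP14 (0.85, 0.0118) and RPN2 (0.61, 0.0443). Each of the calls of these further genes was lost with at least 1 donor left out of all groups (0.0534 to 0.286). Those of ERO1A (0.0737) and RPN2 (0.0812) were also lost with 2 groups alone. The 5 lower genes were DDIT3 (-1.36 ± 0.22, 0.00497), DNAJC3 (-0.60), TXNDC12 (-0.70), DERL2 (-0.50) and ITPR1 (-1.0). The CRELD2 call was lost without MSC_day28 donor 2 or chondrocytes_day28 donors 1 or 2 (0.0568 to 0.0806). The DNAJC3 call was lost without any array but MSC_day0 donor 2, MSC_day28 donor 3 and chondrocytes_day28 donor 2 (0.0515 to 0.113), and the DERL2 call without any but MSC_day0 donors 2 and 3 and MSC_day28 donor 3 (0.0549 to 0.129). The ITPR1 call was lost without MSC_day28 donors 1 or 3 or chondrocytes_day28 donors 1 or 2 (0.0522 to 0.0853), and the TXNDC12 call without chondrocytes_day28 donor 2 (0.0517). With the mean of its probe sets ITPR1 differed by -0.17 (0.494). The calls of DNAJC3, DERL2 and ITPR1 were also lost with ribosomal protein centring, with 2 groups alone and without both arrays of low bioC (0.0549 to 0.119), and that of CRELD2 in the last of these (1.58, 0.0567) and with 2 groups alone (0.0609). With the donors as a block the DERL2 call was lost (0.0544). With 1 donor left out of all groups, the DNAJC3, DERL2 and TXNDC12 calls were lost for each donor, that of CRELD2 for donors 2 and 3 and that of ITPR1 for donors 1 and 3 (0.0754 to 0.299). No single array ended that of DDIT3, though donor 1 or donor 2 left out of all groups did (0.0705 and 0.0954).

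Between chondrocytes_day28 and MSC_day0, 17 were higher and 10 lower, beside 15.1% and 20.9% of all genes, and HYOU1 (-1.17 ± 0.37, adjusted p = 0.0370) was the 1 BiP partner called. By its other probe sets HYOU1 differed by -1.60 (adjusted p = 0.0301), -1.48 (0.00321), -0.58 (0.0277) and -0.20 (0.351). For the strongest set, leaving out any array but MSC_day28 donors 1 and 3 ended the HYOU1 call (0.050 to 0.127). Ribosomal protein centring (0.0552) and a block for the arrays of low bioC (0.0627) ended it too. So did the loss of donor 1 (0.145) or donor 2 (0.113) from all groups.

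**Figure D4:**
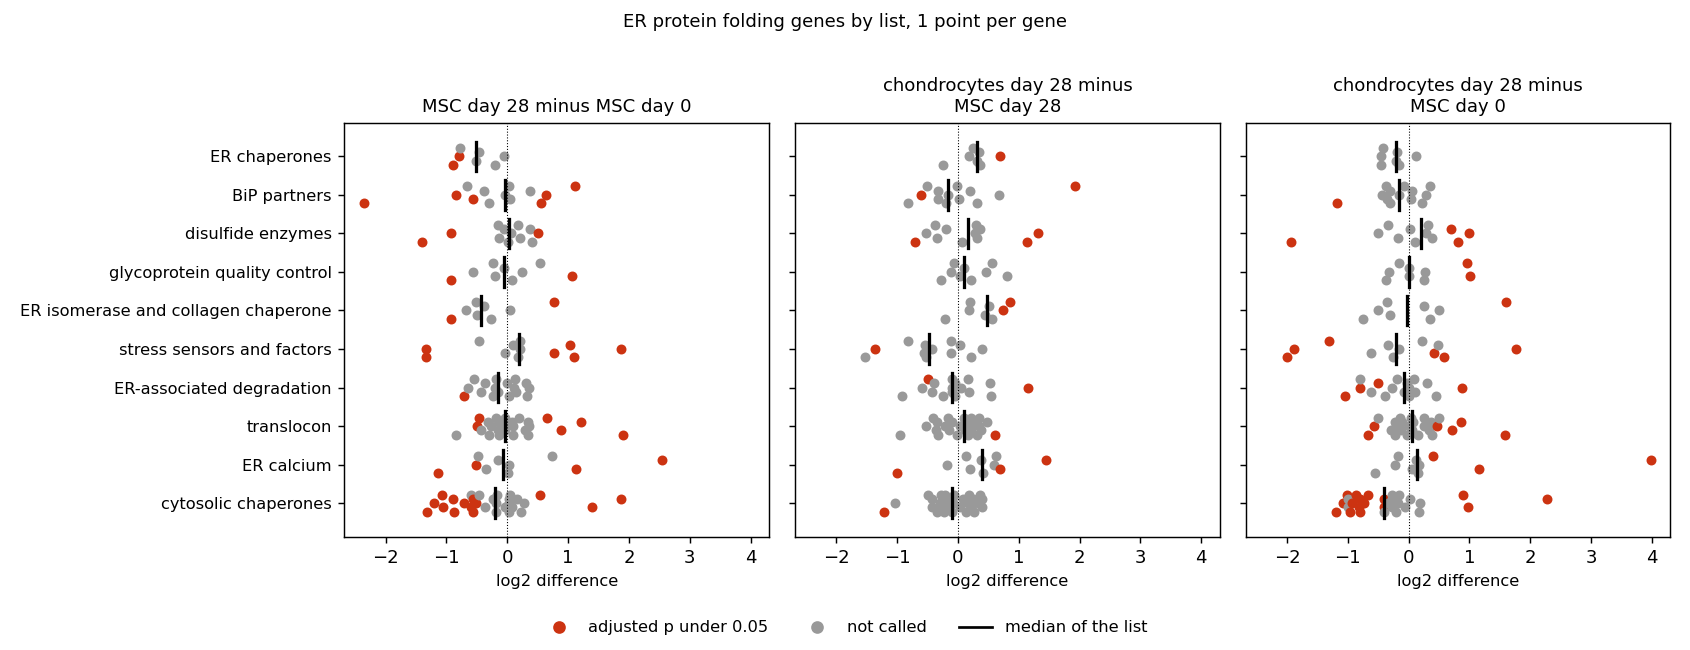
Log2 differences of the ER chaperones, 8 lists of other ER folding genes and cytosolic chaperones, 1 point per gene at the probe set of highest mean (red is an adjusted p under 0.05, black bars are list medians). The median of the ER chaperones was -0.51 in the left panel and 0.32 in the middle panel, while those of the other lists in the left panel ran from -0.44 to 0.19.

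Cytosolic and mitochondrial chaperones, which do the same work outside the ER, were set beside the members. Of 30 measured genes, 11 were lower and 3 higher in MSC_day28 than in MSC_day0 (median -0.21), beside 13.5% of all genes higher and 21.0% lower. HSPB8, the gene of smallest p among the 30, was higher by 1.87 ± 0.26 (adjusted p = 0.000693). HSPA8, the constitutive HSP70 of the cytosol, was lower by -1.07 ± 0.20 (0.00379). HSP90AA1 differed by -0.19 (0.306) for its strongest probe set and by -0.98 ± 0.44 (0.133) for its other set. HSPA1A is counted among the 3 higher by its strongest probe set (1.39). It is otherwise left without a direction, since its 6 probe sets disagreed and its gene copies are nearly identical.

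**Figure D5:**
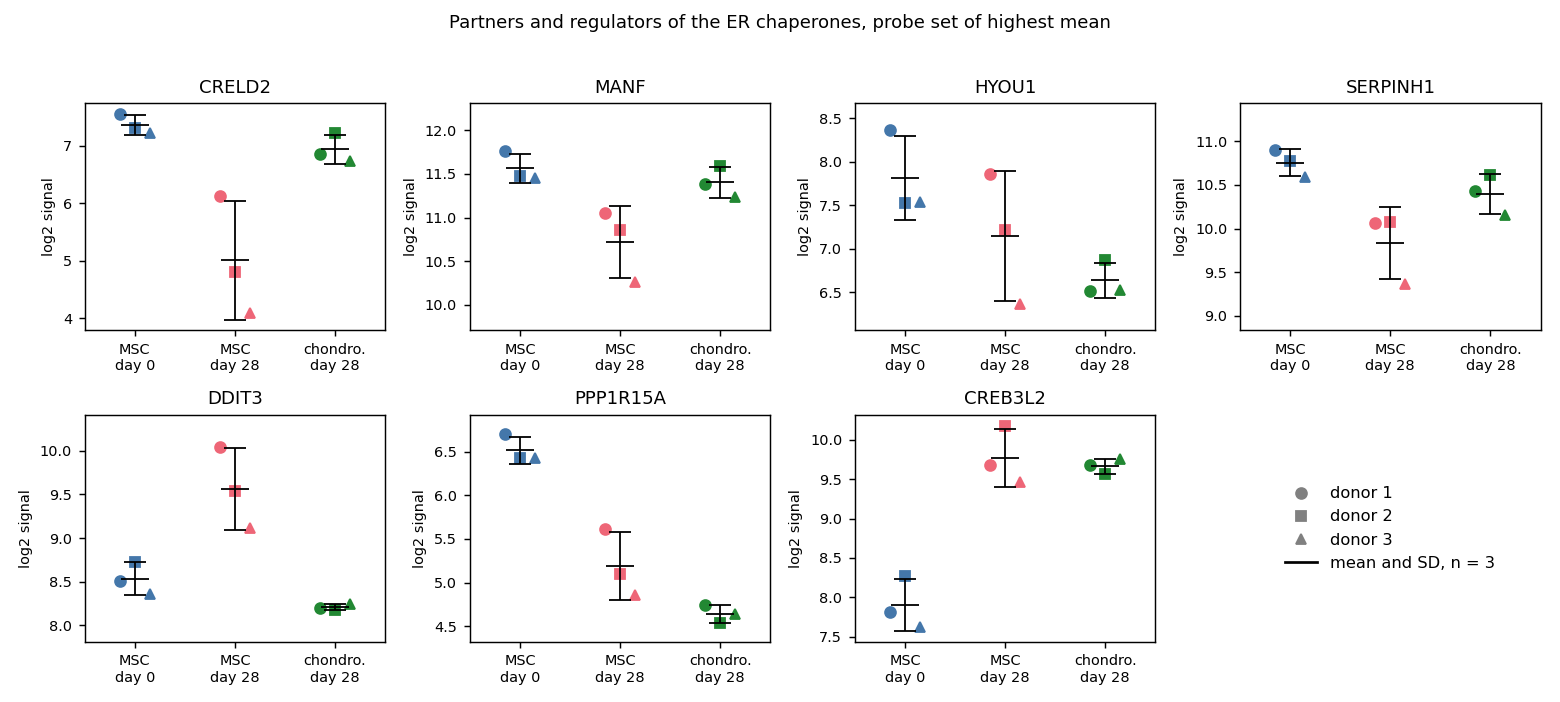
Log2 signal of 7 partners and regulators of the ER chaperones on each of 9 arrays, by the probe set of highest mean (marker shape is the donor; bars are mean and SD, n = 3). CRELD2 ran from 4.09 to 6.12 in MSC_day28, below all other arrays, and DDIT3 from 9.11 to 10.05, above all others.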

How the data were processed

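Total RNA was hybridised to 9 bovine single-colour arrays, each with its own sample. Per the labels' protocols, cDNA was primed with poly(T) and amplified, which favours 3′ ends. The deposited log2 values come from RMA, per the submitters' processing notes, with the version not given in the sources used here. RMA quantile-normalizes the arrays, so a change common to most transcripts is lost. Of 24128 probe sets, 112 controls were left out and 24016 tested. Names came from the platform annotation: 13292 probe sets had 1 symbol, 86 several and 10638 none, and 13263 gene identifiers matched a RefSeq table (ARS-UCD2.0, used for names only). Promoter and protein sequences were not used here.

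The functions lmFit and eBayes of limma 3.58.1 under R 4.3.3 fitted 1 model to all 3 groups, checked on simulated data, with Benjamini-Hochberg adjustment over all probe sets tested. A gene was read by its probe set of highest mean. Arrays of 1 group come from different calves, so p-values measure the spread between calves together with that between arrays.

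The labels give each donor number to all 3 groups as matched cells, so numbers pair the samples. Deviations from group means correlated at 0.108 to 0.412 within donors (9 pairs) and at -0.303 to 0.152 between donors (18 pairs). The model has no donor block, and the block is an alternative.

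The members, the lists of related genes and the alternatives were chosen with earlier results of these data known. Genes drawn for naming were all members and the gene of smallest p in each of 9 lists and comparison. A fixed set of ER and cytosolic folding genes and the 5 genes most correlated with HSPA5 were added. Of the genes so drawn, EDEM2, HSPA9, SEL1L and UBE2G2 are not described in the text. PDIA6 and EDEM1 of the fixed set had no named probe set. Genes named to spell out counts of 5 or fewer were chosen after their values were seen. Alternatives were 3 other scalings, 2 filters on low signal, the donor block, 2-group fits, trended and robust variance, array weights, the 2 arrays of low bioC left out or as a block, each array and each donor left out, and 2 other rules for the probe set of a gene. Those 2 arrays share a wording of the extraction protocol and a donor number, so in the day 28 groups donor 3 and low bioC cannot be told apart.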

Additional observations from a re-analysis of the deposited data

How the results depend on the processing

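The count of members lower in MSC_day28 than in MSC_day0 was 1 in place of 2 with the mean of a gene's probe sets or the set of largest SD, 1 to 3 with 1 array left out, and 0 and 1 with donor 1 or donor 2 left out of all groups. The 1 member higher in chondrocytes_day28 than in MSC_day28 became 0 with arrays centred on their median, the donor as replicate block, 2 groups alone, array weights, the 2 arrays of low bioC left out or as a block, the mean of sets, the set of largest SD and each donor left out, and was 0 to 1 with 1 array left out. The count lower in chondrocytes_day28 than in MSC_day0 went from 0 to 1, HSPA5, with median centring, trended variance, array weights, the mean of sets and the set of largest SD. Calls over all probe sets, in the order of the text, were 7256, 2482 and 7445. They ranged from 5747 to 7010, 1356 to 2598 and 5640 to 7794 with 1 array left out. They were 4292, 747 and 3344 without donor 1, 4574, 766 and 4963 without donor 2, and 1520 in the second comparison without donor 3. With the donor as replicate block they were 8070, 3110 and 8247, and besides PDIA4 the block changed no member's call.

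Scaling moved the split of calls. In chondrocytes_day28 against MSC_day28 it was 1506 higher and 976 lower, but 1344 and 1359 with median centring and 1953 and 594 with ribosomal protein centring, where the median of all probe sets moved from -0.03 to 0.11. Against MSC_day0 it was 3622 and 3823, but 3110 and 5255 (median -0.19) and 4495 and 2626 (median 0.09).

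Some differences near 0 changed sign, and the cause was not tested. In MSC_day28 against MSC_day0, DNAJB9 was -0.03 with median centring and -0.01 to 0.09 with 1 array left out, and HERPUD1 -0.01 to 0.19. P4HB was -0.05 with median centring, -0.02 and -0.01 with the low bioC arrays left out or as a block, -0.02 to 0.05 with 1 array left out and -0.03 without donor 3. ERO1A was 0.14 with the mean of sets, -0.46 to 0.16 with 1 array left out and 0.15 without donor 1. In chondrocytes_day28 against MSC_day28, CALR was -0.02 and PDIA3 -0.01 both without the low bioC arrays and without donor 3, and -0.06 to 0.74 and -0.03 to 0.57 with 1 array left out. HERPUD1 was 0.04 with ribosomal centring, -0.18 to 0.02 with 1 array left out and 0.02 without donor 1. Against MSC_day0, CANX was -0.01, PDIA4 0.10 and RCN2 -0.03 with the set of largest SD, and HSP90B1 and MANF 0.00 with ribosomal centring. Of 102 list gene calls, 27 were kept under every alternative in which the gene was tested.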

Other observations

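Outside the chaperones, 7 genes of the ER lists were called in both groups cultured for 28 days against MSC_day0 and kept both calls throughout. That is, they kept them under every alternative in which they were tested. Further genes of these lists, FKBP14 (0.77 and 1.61) among them, were called in both comparisons but lost a call under some alternative. The share of all genes called in both comparisons was not computed. TRAM2, at percentile 49.9 of mean signal, was not tested with the filter at the 50th percentile. ITPR2, a calcium release channel of the ER membrane, was higher by 2.54 ± 0.22 in MSC_day28 and by 3.99 ± 0.22 in chondrocytes_day28. TRAM2, a protein of the translocation channel that has been tied to collagen synthesis, was higher by 1.91 ± 0.27 and 1.58 ± 0.27. MCFD2, part of the cargo receptor that carries glycoproteins out of the ER, was higher by 1.07 ± 0.17 and 0.96 ± 0.17. CREB3L2, a membrane-bound transcription factor of secretory genes in cartilage, was higher by 1.87 ± 0.22 and 1.76 ± 0.22. QSOX1, a sulfhydryl oxidase, was lower by -1.41 ± 0.15 and -1.94 ± 0.15. CREB3, a relative of CREB3L2, was lower by -1.33 ± 0.17 and -1.30 ± 0.17. PPP1R15A, which directs removal of the phosphate that PERK puts on eIF2, was lower by -1.33 ± 0.20 and -1.88 ± 0.20. Both comparisons share the MSC_day0 arrays.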
